A study of Mus musculus with 18 samples.

Results

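The naive pluripotency transcription factors described here are 8 listed genes: *Nanog*, *Klf2*, *Klf4*, *Klf5*, *Esrrb*, *Tfcp2l1*, *Tbx3* and *Zfp42*. The list was chosen with earlier results of these data known. All 8 were rows of a count table of 25239 mouse genes, and all 8 were among the 16582 genes with enough counts to be tested. The table held 18 RNA-seq libraries of the E14Tg2a mouse embryonic stem cell (ESC) line, 2 in each of 9 conditions, made to ask how cells without TET enzymes take up a germline fate. ESCs kept in 2i/LIF were turned into epiblast-like cells (EpiLCs) with Activin A and Fgf over about 2 days, and these were then cultured as floating aggregates in GK15 medium, either without additions or with BMP4, BMP8a, SCF, LIF and EGF ("cytokines"), to give primordial germ cell-like cells (PGCLCs).

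The wild-type conditions were EpiLCs (day 0), aggregates without cytokines at day 2 and at day 6, and aggregates with cytokines at day 6. The TET TKO conditions were EpiLCs and aggregates with and without cytokines at both days. TKO cells lack the open reading frames of *Tet1*, *Tet2* and *Tet3* on both alleles, excised with CRISPR/Cas9 in successive steps from the same ESC line, and 1 clone stands for this genotype. The publication describes the day 6 wild-type cells with cytokines that gave these libraries as sorted for SSEA1 and CD61, in a legend and not in its RNA-seq methods, whereas the labels call them aggregates like the rest, so every comparison with them may also set sorted cells against whole aggregates. The study describes the 2 libraries per condition as biological replicates, but the labels do not say that they came from separate cultures. The p-values measure the spread between such libraries. That spread was estimated over all conditions together and need not be that of the libraries compared. ESCs and day 2 wild-type aggregates with cytokines were not analysed here.

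Naive pluripotency is the state of the preimplantation epiblast and of mouse ESCs kept in 2i/LIF. It is held by a network of transcription factors that bind and activate one another's genes around a core of OCT4 and SOX2, and that is fed by LIF through STAT3 and by inhibition of MEK and GSK3. The network is dismantled when cells become EpiLCs, which resemble the formative epiblast, and several of its members come back on in primordial germ cells but not in somatic lineages. TET enzymes oxidise 5-methylcytosine and so promote demethylation of DNA.

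Library totals lay between 11.3 M and 41.3 M counts, of which the ribosomal locus *Rn45s* took 16.2% to 47.6%. Levels are given as normalised counts (counts divided by a size factor per library), and changes as log2 fold changes with their standard error (SE) from edgeR's quasi-likelihood test, called at a Benjamini-Hochberg adjusted p below 0.05 over all genes tested. In EpiLCs the targeted genes *Tet1* and *Tet3* were lower in TKO cells, with log2 fold changes of -2.82 ± 0.33 and -2.64 ± 0.32 (edgeR adjusted p = 0.000216 and 0.00022), whereas *Tet2* had normalised counts of 187 and 125 in wild-type and 31.7 and 102 in TKO libraries and was not called. Of the 3 *Tet* genes, 1 was lower in TKO aggregates without cytokines at day 2, 2 at day 6, and 3 at day 6 with cytokines. At day 2 without cytokines *Tet3* had 2558 and 1964 in wild-type and 165 and 238 in TKO libraries. There *Tet1* had 2027 and 1754 against 1937 and 1201, and *Tet2* had 287 and 200 against 355 and 405. The count table is per gene and does not show whether the remaining counts lie outside the excised reading frames. The summed level of 10 formative and primed genes was 64073 to 67762 in wild-type and 31995 to 32799 in TKO EpiLCs. Most of it was *Dnmt3b* (means of 45512 and 17440). The genes did not all differ the same way, with means of 6331 and 2570 for *Pou3f1* but 1439 and 2705 for *Otx2*. The summed level of 7 PGC genes was 13620.1 to 16327 in wild-type and 5238 to 6989 in TKO aggregates with cytokines at day 6. *Kit* was its largest part (means of 7065 and 2741) and was not called. *Prdm14* (1171 and 1158) and *Itgb3* were not called either, whereas *Prdm1*, *Tfap2c*, *Nanos3* and *Dnd1* were lower in TKO aggregates. Day 6 wild-type aggregates without cytokines held a summed level of 8 neural genes of 37802 to 42589, against 1698 to 2024 in EpiLCs.

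In wild-type cells without cytokines the naive factors did not move together over the first 2 days. Of the 8 factors, 1 rose, *Nanog*, and 1 fell, *Zfp42*, between EpiLCs and day 2 aggregates, where 18.6% of all tested genes were higher and 15.7% lower. *Nanog* (chr6:122707489-122714633, + strand, GRCm38), a homeodomain protein whose overexpression sustains self-renewal without LIF, had normalised counts of 423 and 359 in wild-type EpiLCs and 1577 and 1782 at day 2. The day 2 libraries were both above the EpiLC libraries, by 4.47-fold in the fitted model (log2 fold change 2.16 ± 0.28 (SE), edgeR adjusted p = 4.45e-05). *Zfp42* (chr8:43295063-43306980, - strand), also called *Rex1*, encodes a zinc finger protein related to YY1 and is widely used to mark the naive state. Its values were 408 and 251 in EpiLCs and 89.7 and 48.2 at day 2, a fall of 4.61-fold (log2 fold change -2.20 ± 0.32 (SE), edgeR adjusted p = 0.000121). The other 6 factors had log2 fold changes between -0.77 for *Tfcp2l1* and 1.17 for *Klf2* and were not called. In bulk libraries such as these, fewer cells that express a gene and less RNA per cell cannot be told apart.

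Between day 2 and day 6 without cytokines, 5 of the 8 factors fell and none of them rose in edgeR's test, at an unadjusted p as well, while 20.5% of all tested genes were higher and 19% lower. *Nanog* dropped from 1577 and 1782 to 16.8 and 9.26, a 122-fold fall (log2 fold change -6.93 ± 0.37 (SE), edgeR adjusted p = 9.13e-09), so that the gene that had risen at day 2 had 16.8 normalised counts or fewer at day 6. The log2 fold change was -3.21 for *Klf2*, -2.79 for *Klf5*, -2.76 for *Zfp42* and -1.39 for *Tfcp2l1* (edgeR adjusted p between 1.64e-05 and 0.0119). *Klf4*, *Esrrb* and *Tbx3* were already at 47.7, 83.3 and 17.2 normalised counts at day 2 and were not called. The 2 day 6 libraries differed for *Tbx3* (93.9 and 4.63, from 207 and 4 counts) and for *Esrrb* (140.1 and 32.4), and without the first of them the log2 fold change of *Tbx3* from day 2 turned from 1.61 to -1.94 and that of *Esrrb* from 0.10 to -1.40 (edgeR), whereas without the second *Tbx3* was called as higher (2.36, adjusted p = 0.00103). The call of *Tfcp2l1* was lost without the second day 2 library (-0.97, adjusted p = 0.152). Of the 3 core factors, 2 fell over the same days, and *Pou5f1*, which encodes OCT4, went from 3786 and 8817 to 39.0 and 5.79.

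**Figure D1:**
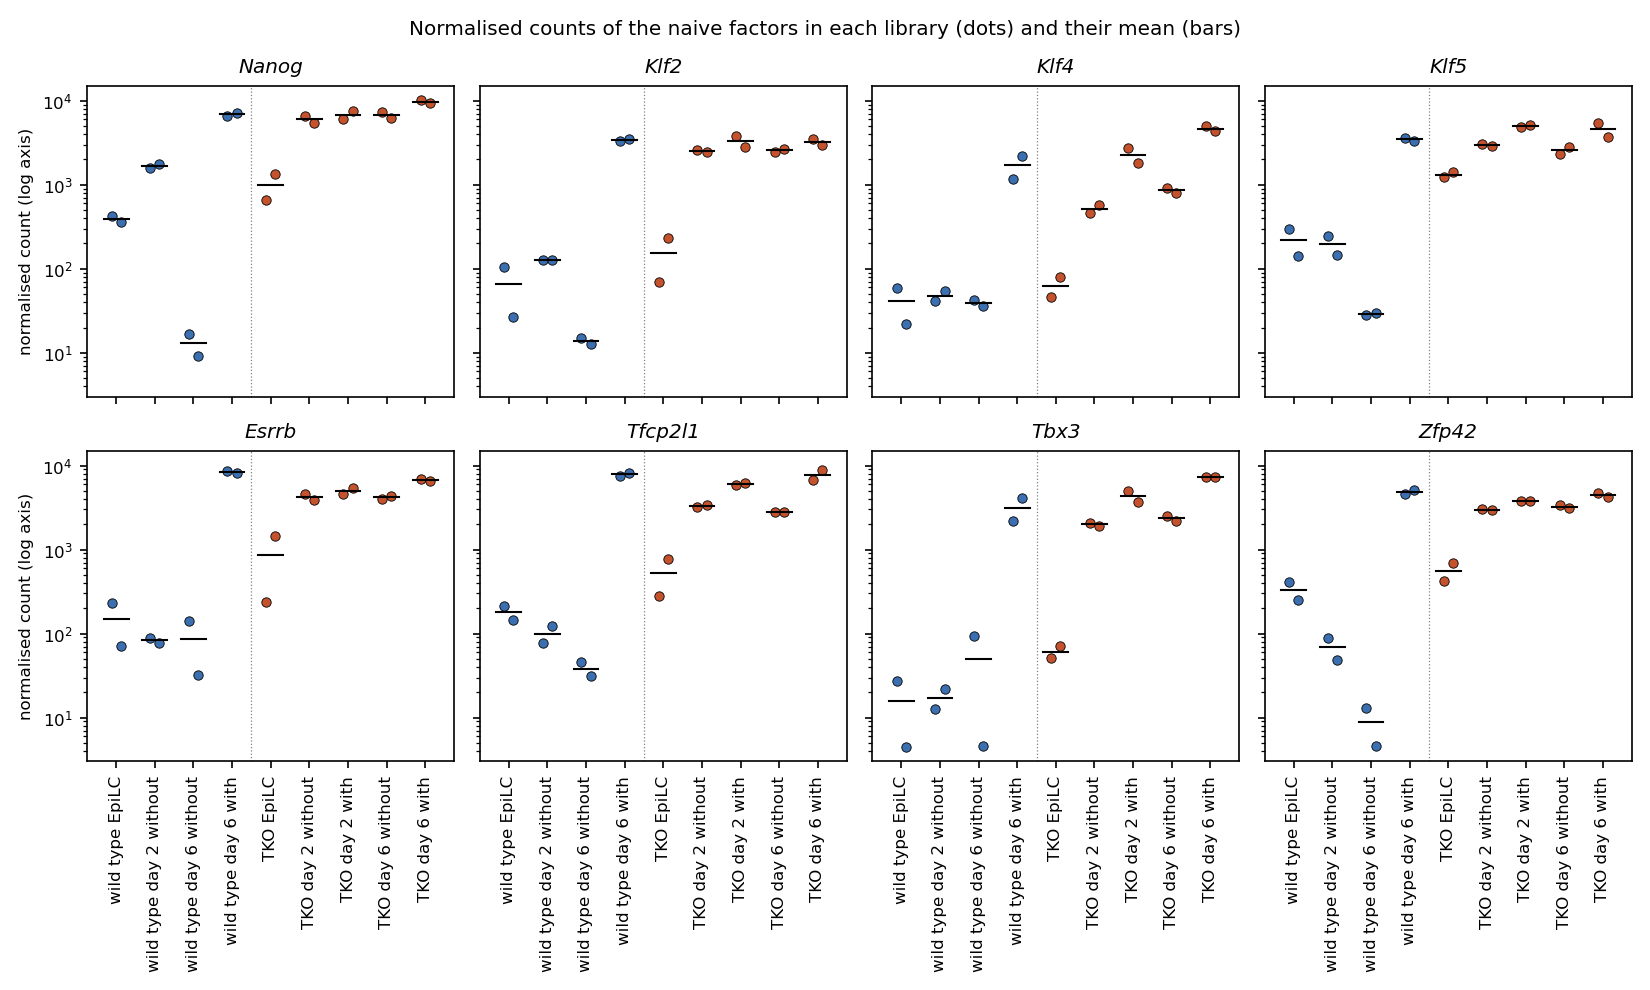
Normalised counts (log axis) of each naive factor in the 18 libraries, by condition; dots are single libraries (blue wild type, orange TKO), bars are the mean of 2 libraries, and "with" and "without" refer to cytokines. Wild-type aggregates without cytokines at day 6 have the lowest mean for 6 of the 8 factors, and TKO aggregates of both days and both media lie above every wild-type library without cytokines.

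With cytokines, day 6 wild-type cells were higher than EpiLCs for 8 of 8 factors, where 22.4% of all tested genes were higher and 18.2% lower, and the median log2 fold change of the factors was 5.55 against 0.07 over all tested genes. The same cells were higher than aggregates without cytokines for 8 of 8, where 29.6% of all tested genes were higher and 28.6% lower, with a median of 7.30 against 0.01. *Nanog* reached 6537 and 7238 and was 498-fold above the aggregates without cytokines (log2 fold change 8.96 ± 0.40 (SE), edgeR adjusted p = 4.26e-10). Among the Krüppel-like zinc finger factors, *Klf2* (chr8:72319033-72321656, + strand) had 3295 and 3546, *Klf4* (chr4:55527143-55532466, - strand) 1185 and 2212, and *Klf5* (chr14:99298691-99315036, + strand) 3600.4 and 3331 normalised counts. The lowest of these library values was more than every value of the same gene in wild-type EpiLCs and in aggregates without cytokines. *Esrrb* (chr12:86361117-86521628, + strand), an orphan nuclear receptor and a direct target of NANOG, reached 8564 and 8171, its highest level in any condition. *Tfcp2l1* (chr1:118627945-118685168, + strand), a CP2 family factor that LIF induces through STAT3, stood at 7565 and 8131. *Tbx3* (chr5:119670669-119684724, + strand), a T-box factor of the LIF response, went from 27.3 and 4.45 in EpiLCs to 2183 and 4063, the largest log2 fold change of the 8 against EpiLCs (8.10 ± 0.84 (SE), edgeR adjusted p = 5.28e-06). *Zfp42* stood at 4575 and 5146.

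Other naive genes shared this rise in part. Of 12 further genes of the naive state, 8 were higher and 3 lower in day 6 wild-type cells with cytokines than in EpiLCs. *Nr5a2*, a nuclear receptor, went from 30.6 and 8.9 to 1141 and 1198, whereas *Fgf4* went from 2687 and 2611 to 995 and 1409. All 5 LIF and STAT3 pathway genes of the list (*Lifr*, *Il6st*, *Jak1*, *Stat3* and *Socs3*) were higher than in EpiLCs, with a median log2 fold change of 3.21. All 7 PGC genes were higher too, and of 10 formative and primed genes 8 were lower.

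TKO EpiLCs had more of some naive factors before aggregation began. Of the 8, 4 were higher than in wild-type EpiLCs and 0 were lower, where 7.57% of all tested genes were higher and 3.18% lower, and 7 of 8 were higher at an unadjusted p below 0.05. *Klf5* changed most, from 299 and 141 in wild-type to 1221 and 1411 in TKO EpiLCs, a 6.29-fold difference (log2 fold change 2.65 ± 0.30 (SE), edgeR adjusted p = 0.000161). *Nanog* had 665 and 1342 in TKO EpiLCs (1.40 ± 0.27, adjusted p = 0.00541). *Tfcp2l1* had 281 and 771 against 214 and 147 (1.60 ± 0.36, adjusted p = 0.0116). *Esrrb* was also called, with 239 and 1463 against 228 and 71.7 (2.62 ± 0.68, adjusted p = 0.0251), and its TKO libraries lay far apart. For all 4 genes both TKO libraries were above both wild-type ones. *Klf2*, *Klf4*, *Tbx3* and *Zfp42* had log2 fold changes between 0.81 and 2.40 and were not called.

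The EpiLC replicates differed from each other across the whole set. All 8 factors were higher in replicate 1 than in replicate 2 of wild-type EpiLCs, and all 8 were higher in replicate 2 of TKO EpiLCs, whereas 50.2% and 48.5% of all tested genes were higher in those libraries. Without replicate 2 of either genotype, *Nanog*, *Esrrb* and *Tfcp2l1* were no longer called between EpiLCs and only *Klf5* was. Without replicate 2 of TKO EpiLCs the log2 fold change of *Esrrb* was 0.78 and its edgeR adjusted p was 0.497. The 12 other naive genes had edgeR adjusted p of 0.0625 or more between TKO and wild-type EpiLCs, and their log2 fold changes lay between -0.52 and 1.47. Of the 11 other KLF family genes 5 were higher, among them *Klf9* (1.32 ± 0.26) and *Klf15* (1.64 ± 0.32). Of 10 formative and primed genes, 3 were lower, namely *Pou3f1*, *Dnmt3b* and *Sox3*. Without replicate 2 of TKO EpiLCs these 3 genes and *Klf9* were not called (edgeR adjusted p between 0.0510 and 0.0929), and *Klf15* was not called without either wild-type library (0.0581 and 0.0595).

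Without cytokines the genotypes separated for the whole set. TKO aggregates were higher than wild-type aggregates for 8 of 8 factors at day 2, where 18% of all tested genes were higher and 14.8% lower, and for 8 of 8 at day 6, where 28.5% of all tested genes were higher and 26.9% lower. The median log2 fold change of the factors was 4.65 at day 2 and 6.33 at day 6, against 0.00 and 0.01 over all tested genes. No TKO library overlapped a wild-type library for any factor at either day, where 39% of all tested genes at day 2 and 38% at day 6 were higher, and 34.7% and 35.7% lower, in both TKO libraries than in both wild-type ones.

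In TKO aggregates without cytokines *Nanog* reached 6585 and 5399 normalised counts at day 2 and 7386 and 6303 at day 6. Its difference from wild type was 1.80 ± 0.27 (log2 fold change and SE, edgeR adjusted p = 0.000155) at day 2, the smallest of the 8, and 8.93 ± 0.39 (adjusted p = 4.71e-10) at day 6, the largest. The wild-type value at day 2 (1679 ± 145, SD, n = 2) and at day 6 (13.0 ± 5.32) lay far apart, whereas the TKO libraries of both days overlapped. *Klf2* had 2613 and 2477 in the day 2 libraries and 2485 and 2639 in those of day 6, and *Klf5* had 3047 and 2903 in the day 2 libraries and 2337 and 2849 in those of day 6. *Klf4* had 462 and 569.6 in the day 2 libraries and 909.9 and 801 in those of day 6. The KLF factors differed from wild type by 4.29, 3.39 and 3.91 at day 2 (*Klf2*, *Klf4*, *Klf5*; edgeR adjusted p no higher than 1.58e-05), and *Klf4* had the smallest difference of the 8 at day 6, 4.43 ± 0.41.

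*Esrrb* stood at 4627 and 3886 at day 2 and 4015 and 4397 at day 6, and *Tfcp2l1* at 3212 and 3395 at day 2 and 2779 and 2819.7 at day 6. They exceeded wild type by 5.65 and 5.01 on the log2 scale at day 2, and by 5.54 and 6.16 at day 6. *Tbx3* had 2081 and 1924 at day 2 against 12.7 and 21.7 in wild type, the largest day 2 difference (6.79 ± 0.78 (SE), edgeR adjusted p = 1.34e-05). *Zfp42* had 3020.1 and 2915 in the day 2 libraries and 3416 and 3085 in those of day 6, a log2 difference of 5.41 ± 0.35 and 8.31 ± 0.42 from wild type. Both genes were therefore at 1924 normalised counts or more in TKO aggregates without cytokines and at 93.9 normalised counts or fewer in every wild-type library without cytokines after day 0.

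Of the 12 other naive genes, 10 were higher and 2 lower in TKO than in wild-type aggregates at day 2, and 10 were higher at day 6. *Nr0b1*, which encodes DAX1, had 18.5 and 10.1 in wild-type and 1575 and 1417 in TKO aggregates at day 2 (6.70 ± 0.76, edgeR adjusted p = 1.28e-05). *Fgf4*, the ligand that drives exit from the naive state, had 77.0 and 54.4 in wild-type and 2852 and 2759 in TKO aggregates. The 2 genes that were lower were *Gbx2* (906 and 1032 against 103 and 148) and *Eras* (276 and 500.2 against 128 and 178). Of the 3 core factors only *Sox2* was called at day 2 (1.01 ± 0.30), a call lost without replicate 2 of the wild type or either TKO library, and that of *Eras* was lost without replicate 2 of the wild type or replicate 1 of the TKO, while 3 of 3 were higher at day 6. Of 5 regulators of naive exit, 4 were higher at day 2, *Zfp281*, *Etv5*, *Rbpj* and *Tcf15*, and *Tcf7l1*, a repressor of naive genes, had 1663 and 1478 in wild-type and 1282 and 1210.1 in TKO aggregates. The summed neural markers were 8332 to 8980.1 in wild-type and 1680.2 to 2494 in TKO aggregates at day 2, and 37802 to 42589 and 2178 to 2582 at day 6, and their part in these differences was not tested.

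**Figure D2:**
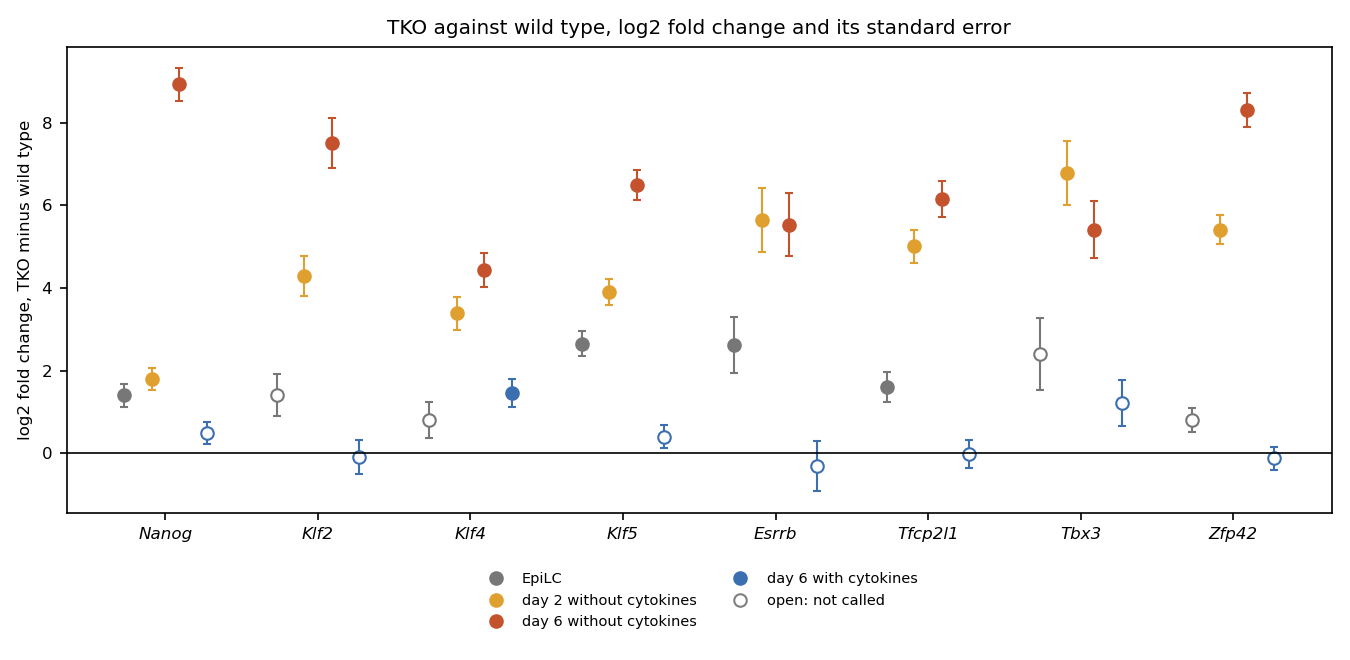
Log2 fold change of TKO over wild-type cells for each naive factor (y axis) with its standard error, in EpiLCs, in aggregates without cytokines at day 2 and day 6, and at day 6 with cytokines; filled dots were called at an adjusted p below 0.05 (edgeR) and open dots were not. All 8 dots are filled at both days without cytokines, 4 in EpiLCs and 1, *Klf4*, at day 6 with cytokines.

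All 8 factors had risen by day 2 in TKO aggregates, with and without cytokines. From TKO EpiLCs to day 2, 8 of 8 factors rose without cytokines, where 10.1% of all tested genes were higher and 8.52% lower, and 8 of 8 rose with cytokines, where 7.88% of all tested genes were higher and 6.39% lower. Without cytokines the smallest rise was that of *Klf5* (2.24-fold, edgeR adjusted p = 0.0114), and the largest was that of *Tbx3* (5.03 ± 0.69, adjusted p = 0.000271). With cytokines *Klf4* rose by 5.20 ± 0.41 and *Tbx3* by 6.15 ± 0.72. The 2 comparisons share the TKO EpiLC libraries. Without cytokines the calls of *Klf5* and *Esrrb* were lost without replicate 1 of TKO EpiLCs or either day 2 library, which left 6 factors. With cytokines the call of *Esrrb* was lost without replicate 1 of TKO EpiLCs or replicate 2 at day 2, which left 7.

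The change over these 2 days without cytokines differed between the genotypes for 6 of the 8 factors, tested as an interaction of genotype and time, where 6.08% of all tested genes were higher and 6.19% lower. *Zfp42* gave the largest difference and the lowest p: it fell 4.61-fold in wild-type and rose 5.27-fold in TKO cells, a difference of 4.60 ± 0.44 on the log2 scale (SE, edgeR adjusted p = 1.79e-05). *Tfcp2l1* differed by 3.41 ± 0.51 (adjusted p = 0.000529), *Klf2* by 2.88 ± 0.68 (adjusted p = 0.0122) and *Klf4* by 2.58 ± 0.59 (adjusted p = 0.00981). *Tbx3* (4.39 ± 1.27, adjusted p = 0.0344) and *Esrrb* (3.02 ± 0.95, adjusted p = 0.0491) were near the threshold. *Nanog* rose in both genotypes, by 2.16 in wild-type and 2.57 in TKO cells, and its interaction of 0.41 ± 0.38 was not called (adjusted p = 0.553); neither was that of *Klf5* (1.25 ± 0.41, adjusted p = 0.0579), which DESeq2 did call (1.33, adjusted p = 0.0202), for 7 factors in all. The calls of *Tbx3* and *Esrrb* were each lost without any 1 of 6 of the 8 libraries. Without replicate 1 of wild-type EpiLCs only 2 of the 8 interactions were called, and without replicate 2 of the same cells 7 were.

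In TKO aggregates all 8 factors had a higher mean with than without cytokines at both days, a direction that turned for 4 at day 2 and for 3 at day 6 under scaling by library totals alone, which moved the median of all tested genes to -0.48 and -0.49. The libraries with and without cytokines did not overlap for 6 of 8 factors at day 2 and for 8 of 8 at day 6, where 27.9% and 28.9% of all tested genes were higher, and 33% and 28.3% lower, without overlap. Fewer passed the test. At day 2, 1 of 8 was called as higher with cytokines, *Klf4*, where 2.05% of all tested genes were higher and 2.47% lower, and at day 6, 2 of 8 were called, *Klf4* and *Tfcp2l1*, where 2.56% of all tested genes were higher and 3.05% lower. *Klf4* is a direct target of LIF and STAT3 signalling, but LIF was added only together with the other cytokines, and its part was not tested. At day 2 *Klf4* had 462 and 569.6 without and 2748 and 1815 with cytokines, a 4.48-fold difference (log2 fold change 2.16 ± 0.35 (SE), edgeR adjusted p = 0.00377). At day 6 it had 909.9 and 801 without and 4972 and 4353 with cytokines, a 5.5-fold difference (2.46 ± 0.35, adjusted p = 0.00143). *Tfcp2l1* had 2779 and 2819.7 without and 6767 and 8741 with cytokines at day 6 (1.48 ± 0.34, adjusted p = 0.0207). At day 2 it had 3212 and 3395 without and 5902 and 6201 with cytokines, when it was not called (0.89 ± 0.33, adjusted p = 0.124). With 2 libraries per condition, the missing calls do not show that the other factors stayed the same.

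*Tbx3* and *Klf5* came next and were not called. *Tbx3* had 2524 and 2163 without and 7225 and 7323 with cytokines at day 6 (1.65 ± 0.57, edgeR adjusted p = 0.0997), and *Klf5* had 2337 and 2849 without and 5461 and 3688 with them (0.84 ± 0.28, adjusted p = 0.0897). *Nanog*, *Klf2*, *Esrrb* and *Zfp42* had log2 fold changes between 0.20 and 0.38 at day 2 and between 0.34 and 0.69 at day 6, directions that turned for all 4 at day 2 and for all but *Esrrb* at day 6 when libraries were scaled by their total alone. *Rn45s* took 16.2% to 20.9% of the counts without and 31.7% to 37.3% with cytokines in these aggregates, and with *Rn45s* left out of the total none of these directions turned (0.026 to 0.21 at day 2 and 0.21 to 0.56 at day 6). At an unadjusted p below 0.05, 3 factors were higher at day 2 and 4 at day 6. The call of *Klf4* at day 2 was lost without either library without cytokines or replicate 1 with them, with adjusted p between 0.0520 and 0.0575, and that of *Tfcp2l1* at day 6 without any 1 of the 4 libraries, with adjusted p between 0.0621 and 0.149. A fit of only the 4 libraries compared called 4 factors at day 2 and 5 at day 6. The LIF feedback gene *Socs3* had 58.1 and 106 without and 910.1 and 828 with cytokines at day 2 (3.43 ± 0.32, adjusted p = 7.12e-05) and 126 and 109 without and 1937 and 1243 with them at day 6 (3.77 ± 0.32, adjusted p = 2.52e-05), and it was the only 1 of the 5 LIF and STAT3 genes called. The 12 other naive genes had edgeR adjusted p of 0.157 or more at day 2, and 1 was called at day 6, *Tcl1* (1.10 ± 0.29), a call lost under both scalings by library totals. Of 11 other KLF genes only *Klf12* was called, and it was lower with cytokines at day 6 (-1.34 ± 0.34). The calls of *Tcl1* and *Klf12* were each lost without any 1 of the 4 libraries.

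**Figure D3:**
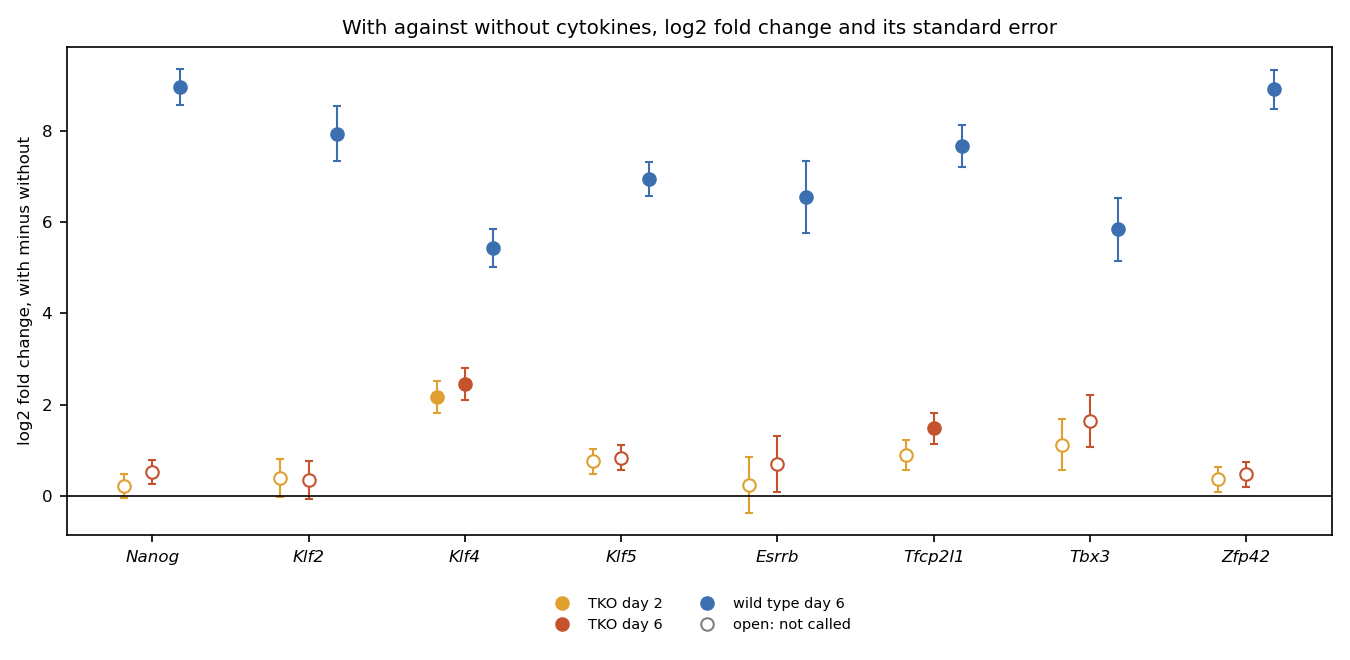
Log2 fold change of aggregates with over those without cytokines (y axis) with its standard error, in TKO cells at day 2 and day 6 and in wild-type cells at day 6; filled dots were called at an adjusted p below 0.05 (edgeR). Wild-type dots lie between 5.44 and 8.96, TKO dots between 0.20 and 2.46, and the TKO dots of *Nanog*, *Klf2* and *Zfp42* fall below 0 at both days under scaling by library totals alone, which moves the median of all genes below 0, as does that of *Esrrb* at day 2, and none does with *Rn45s* left out of the total.

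The difference that cytokines made at day 6 was smaller in TKO than in wild-type cells for all 8 factors, tested as an interaction of genotype and cytokines, where 21% of all tested genes were higher and 22% lower. It was -8.44 ± 0.50 (SE) on the log2 scale for *Zfp42* and -8.44 ± 0.46 for *Nanog*, the largest in size, with edgeR adjusted p of 1.64e-08 and 9.58e-09. For *Klf4* it was smallest (-2.98 ± 0.51 (SE), edgeR adjusted p = 0.000264). The wild-type cells with cytokines may be sorted and the other 3 conditions were whole aggregates, which cannot be told apart from the interaction. The count was 8 with any 1 library left out.

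With cytokines at day 6 the naive factors of TKO aggregates differed less from those of the wild-type cells than they did without cytokines, as the interaction gives. Of the 8, 1 was higher, *Klf4*, and 0 were lower, where 11.3% of all tested genes were higher and 7.53% lower. *Klf4* had 1185 and 2212 in wild-type and 4972 and 4353 in TKO cells, a 2.74-fold difference (log2 fold change 1.45 ± 0.34 (SE), edgeR adjusted p = 0.00769), and the call was lost without replicate 1 of the wild-type (adjusted p = 0.117) or of the TKO cells (adjusted p = 0.0514). *Tbx3* had 2183 and 4063 in wild-type and 7225 and 7323 in TKO cells (1.21 ± 0.56, adjusted p = 0.145), and was called when no filter on low counts was used or only these libraries were fitted. *Nanog* (0.49 ± 0.26), *Klf5* (0.40 ± 0.28) and *Esrrb* (-0.32 ± 0.61) were not called although their libraries did not overlap, where 33.6% of all tested genes were higher and 29.8% lower without overlap. *Klf2*, *Tfcp2l1* and *Zfp42* differed by -0.09, -0.02 and -0.13 with overlapping libraries. The SE of these 8 differences lay between 0.26 and 0.61, and the missing calls do not show that the genotypes were alike. Of the 7 PGC genes 4 were lower in TKO aggregates, among them *Prdm1*, which encodes BLIMP1 (1899.7 and 1755 against 111 and 208).

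Between TKO aggregates given cytokines for 2 days and the day 6 wild-type cells, 0 of 8 factors were called by edgeR, 0 at an unadjusted p below 0.05 and 0 by DESeq2, where 10.4% of all tested genes were higher and 9.49% lower. The log2 fold changes lay between -0.76 (*Esrrb*) and 0.51 (*Klf5*). The libraries did not overlap for 4 of the 8, where 33.2% of all tested genes were higher and 33.7% lower without overlap. *Klf5* had 4870 to 5097 in the TKO and 3331 to 3600.4 in the wild-type libraries. *Esrrb* had 4521 to 5423 against 8171 to 8564, *Tfcp2l1* 5902 to 6201 against 7565 to 8131, and *Zfp42* 3763 to 3771 against 4575 to 5146. From day 2 to day 6 in TKO aggregates 0 of 8 were called with cytokines, 1 at an unadjusted p and 1 by DESeq2, which was *Klf4* in both cases (1.04 ± 0.33 in edgeR), where 4.28% of all tested genes were higher and 1.72% lower. Without cytokines 0 of 8 were called, again with 1, *Klf4*, at an unadjusted p (0.74 ± 0.34) and 0 by DESeq2, where 0.422% of all tested genes were higher and 0.0543% lower. In a fit of only the libraries compared, 2 factors were called against the wild-type cells, 1 between the days with cytokines and 1 without.

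Per length, the factors stood in different proportions in the wild-type conditions. Normalised counts were divided by the length of the merged exons of each gene in kilobases, and summed over the 8 factors. The sum was 531 ± 188 (SD, n = 2) per kb in wild-type EpiLCs, 963 ± 34.0 at day 2, 72.7 ± 38.0 at day 6 without cytokines and 12542 ± 976 with them. In TKO cells it was 1511 ± 660.2 in EpiLCs and between 8460.3 (day 2 without cytokines) and 15243 (day 6 with) in aggregates. *Nanog* made up 77.7% ± 3.96 (SD, n = 2) of the sum in wild-type aggregates at day 2, against 34.3% ± 8.34 in wild-type EpiLCs and between 25.9% ± 4.17 and 33.8% ± 2.58 in TKO aggregates. At that point *Nanog* held most of the sum, and the share of *Zfp42*, 35.2% ± 0.617 in EpiLCs, was 4.07% ± 1.86. In day 6 wild-type cells with cytokines *Nanog* and *Zfp42* again led, with 24.5% ± 0.143 and 21.9% ± 0.113. In TKO EpiLCs *Klf5* held 28.1% ± 9.62, more than its 8.61% to 12.6% in TKO aggregates. *Klf4* went from 3.13% ± 0.169 to 10.1% ± 0.264 between day 6 TKO aggregates without and with cytokines, and *Tbx3* from 5.18% ± 0.38 to 9.55% ± 0.738. In day 6 wild-type aggregates without cytokines the shares rest on few counts.

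**Figure D4:**
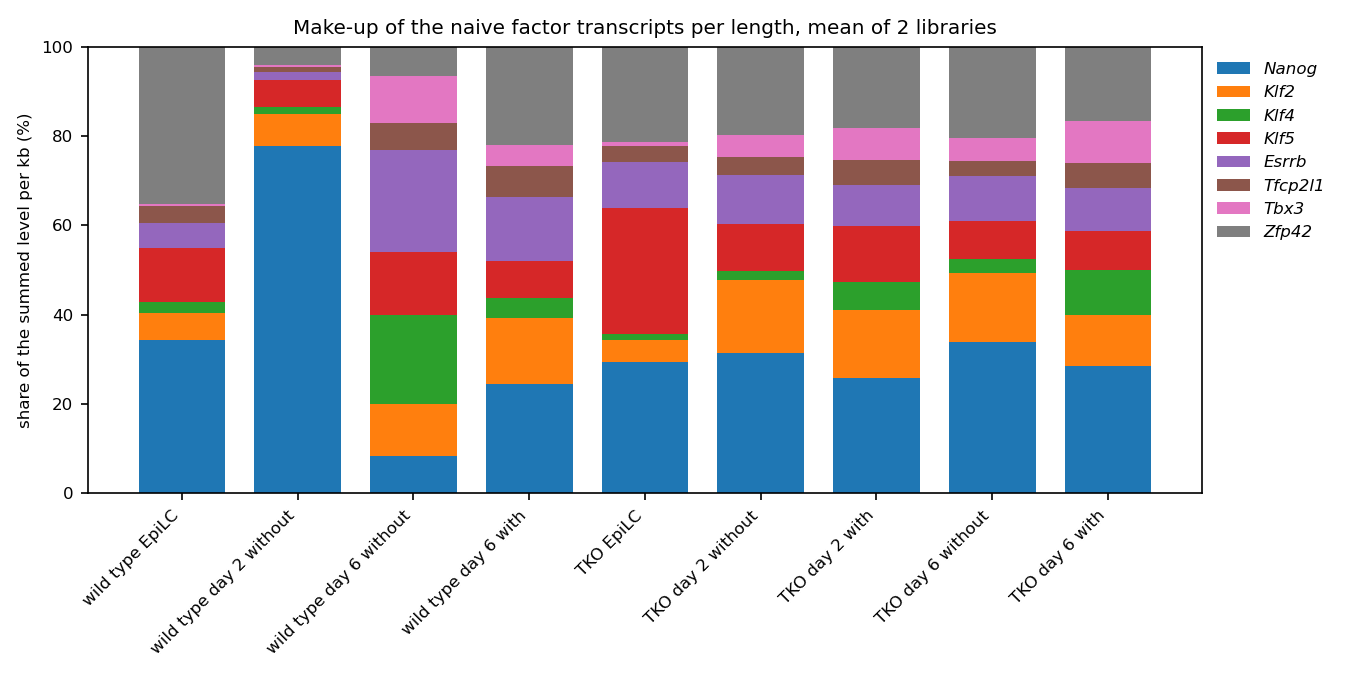
Share of each naive factor in the summed normalised count per kilobase of exon (y axis, percent, mean of 2 libraries), by condition; "with" and "without" refer to cytokines. *Nanog* fills most of the bar of wild-type aggregates at day 2 without cytokines, with 77.7%, and 24.5% to 34.3% of the bars of the other conditions except day 6 wild-type aggregates without cytokines.

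The highest mean was in day 6 wild-type cells with cytokines for *Klf2*, *Esrrb*, *Tfcp2l1* and *Zfp42*, in day 6 TKO aggregates with cytokines for *Nanog*, *Klf4* and *Tbx3*, and in day 2 TKO aggregates with cytokines for *Klf5*. The libraries of the 2 highest conditions overlapped for *Klf2*, *Klf5*, *Tfcp2l1* and *Zfp42* and not for *Nanog*, *Klf4*, *Esrrb* and *Tbx3*. The lowest mean was in day 6 wild-type aggregates without cytokines for all but *Esrrb*, lowest at day 2 in the same medium, and *Tbx3*, lowest in wild-type EpiLCs. The lowest 3 conditions overlapped for *Klf4* (39.5, 40.9 and 47.7 normalised counts), *Esrrb* and *Tbx3*. From lowest to highest mean the span was 100.5-fold for *Esrrb* and 747-fold for *Nanog*, the narrowest and the widest.

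Over the 9 condition means, on the log2(normalised count + 1) scale, the 28 pairs of factors had Pearson r between 0.73 (*Nanog* and *Tbx3*) and 0.98 (*Esrrb* and *Tfcp2l1*). *Klf4* and *Tbx3* were close to each other (r = 0.97). These values describe 9 points, which share a reference scale and fall into conditions with high and with low levels of most factors. Among 11989 other genes, those most like *Nanog* were *Hhex*, *Mlh3* and *Eps8*, with r of 0.99, 0.98 and 0.97. For *Klf2* they were *Tcl1*, *Myof* and *Tead4*, for *Klf4* *Aqp3*, *D230025D16Rik* and *Cdc5l*, and for *Klf5* *Ncoa3*, *Slc44a1* and *Plpp1*. *Tbx3* was most like *Sik1*, *Rfx2* and *Mep1b*, and *Zfp42* most like *Mov10*, *Zfp296* and *Panct2*. Over single libraries in place of condition means, some of these ranks changed. *Rfx2* was at rank 40 for *Tbx3* and *Plpp1* at rank 16 for *Klf5*, while *Hhex*, *Aqp3* and *Sik1* kept rank 1.

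As the factors rose together in several comparisons, the 250 bases before the annotated start of transcription were read for the 6 factors that have an entry among the RefSeq promoters of GRCm38.p6 (8 windows, as *Nanog* and *Esrrb* have 2 starts each); *Klf5* and *Tbx3* were not among them. The windows of 4 factors are shown, 5′ to 3′ on the strand of the gene: *Nanog* and *Zfp42*, which moved in opposite directions in wild-type cells by day 2, *Esrrb*, and *Klf4*, the factor that differed with cytokines in TKO cells at both days. Capitals mark matches, on either strand, to TTTGCAT (the octamer motif bound by OCT4), ACAATG (a SOX2 core), CCACCC (a KLF site), TTCNNNGAA (a STAT site) and AAGGTCA (an estrogen-related receptor core).
Nanog, chr6:122707239-122707488, + strand: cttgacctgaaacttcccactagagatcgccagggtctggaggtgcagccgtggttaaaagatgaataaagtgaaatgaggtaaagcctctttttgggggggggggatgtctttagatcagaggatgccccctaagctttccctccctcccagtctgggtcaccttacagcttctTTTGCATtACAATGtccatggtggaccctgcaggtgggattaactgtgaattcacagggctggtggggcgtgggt
Zfp42, chr8:43307010-43307259, - strand: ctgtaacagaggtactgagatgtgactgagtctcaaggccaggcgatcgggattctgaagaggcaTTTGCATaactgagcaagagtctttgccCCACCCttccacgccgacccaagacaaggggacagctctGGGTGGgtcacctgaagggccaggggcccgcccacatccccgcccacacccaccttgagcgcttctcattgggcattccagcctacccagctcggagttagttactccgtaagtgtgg
Esrrb, chr12:86360867-86361116, + strand: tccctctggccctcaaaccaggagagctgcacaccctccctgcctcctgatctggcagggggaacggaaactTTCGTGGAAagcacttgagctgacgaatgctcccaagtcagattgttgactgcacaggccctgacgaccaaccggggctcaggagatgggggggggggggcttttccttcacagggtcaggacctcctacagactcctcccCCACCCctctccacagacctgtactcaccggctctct
Klf4, chr4:55532476-55532725, - strand: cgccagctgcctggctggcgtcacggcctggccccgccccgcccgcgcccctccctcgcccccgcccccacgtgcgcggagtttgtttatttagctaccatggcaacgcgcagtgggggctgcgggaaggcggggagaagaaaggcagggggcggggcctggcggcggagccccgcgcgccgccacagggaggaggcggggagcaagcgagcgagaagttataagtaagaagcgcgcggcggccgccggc

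The octamer motif was in the windows of *Nanog* and *Zfp42*, and in 4.13% of all 32841 RefSeq windows of that length. In *Nanog* it stood 1 base away from ACAATG, the arrangement of the composite OCT4 and SOX2 element, and ACAATG was in 10.7% of all windows. The KLF letters were in 5 of the 8 windows against 28.1% of all. These were both *Esrrb* windows, those of *Klf2* and *Zfp42*, and the *Nanog* window not shown, which overlaps that shown. STAT letters were only in the *Esrrb* window shown (7.02% of all), and the estrogen-related receptor letters in none (4.08% of all). A search for CCNGNNNNNNCCNG, the paired sites of TFCP2L1, found it in the windows of *Klf2* and *Esrrb* (24.9% of all), where in *Klf2* it overlaps the KLF match. The windows of *Klf4* and *Tfcp2l1*, the factors called with cytokines in TKO aggregates, held none of these 6 motifs. They had 32 CpG dinucleotides (*Klf4*) and 16 (*Tfcp2l1*), with a median of 6 over all windows. Windows of factors not called with cytokines had 29 (*Klf2*), 9 (*Zfp42*), 6 and 3 (*Esrrb*) and 3 and 2 (*Nanog*). These are matches of letters in short windows and say nothing of binding or of methylation, which were not measured in these libraries.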

How the data were processed

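RNA was measured in 18 libraries. Per the labels and the published methods, the authors depleted ribosomal RNA, prepared directional libraries, trimmed reads with Trim Galore 0.5.0 and cutadapt 1.16, aligned them to mm10 with STAR 2.7.1a and counted them over RefSeq exons with Subread featureCounts 1.5.2. The deposited values are raw read counts per gene. Strand was not used, so reads of overlapping antisense genes cannot be separated, and reads mapping to several places were not counted, which may understate *Nanog*, a gene with retrocopies. The 33 lines that name no gene were left out.

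Genes passing filterByExpr were fitted with edgeR 4.0.16 (R 4.3.3; TMM, quasi-likelihood) in 1 model of 9 condition means, with 17 contrasts. SE was derived from the size of the log2 fold change and the root of its F statistic. Levels are counts divided by DESeq2 1.42.0 size factors. The fit was tested on simulated data. The members and lists were chosen with earlier results of these data known. Besides the members, the text names genes of those lists and, for each member, the 3 genes with the highest Pearson r over condition means. Those of *Esrrb* and *Tfcp2l1* are not reported here. Depth was 11.3 M to 41.3 M counts per library. Lengths are merged GENCODE M21 exons of RefSeq-paired transcripts (GRCm38). Groups came from the labels, and alternatives in scaling, filter, test, block and libraries were run.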

Additional observations from a re-analysis of the deposited data

Results flagged for a closer look

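The results in this section were picked because an effect differed between groups, by a test of the difference itself (an interaction term in edgeR's quasi-likelihood model, 2 libraries per condition). The change from EpiLCs to day 2 without cytokines was more positive in TKO than in wild-type cells for 6 of the 8 factors. In this test 6.08% of all tested genes were higher and 6.19% lower. The number of factors called depended on single libraries, and the calls of *Tbx3* and *Esrrb* were lost without most of them. The log2 differences (± SE, edgeR adjusted p) were 2.88 ± 0.68, adjusted p = 0.0122 for *Klf2*, 2.58 ± 0.59, adjusted p = 0.00981 for *Klf4* and 3.02 ± 0.95, adjusted p = 0.0491 for *Esrrb*. They were 3.41 ± 0.51, adjusted p = 0.000529 for *Tfcp2l1*, 4.39 ± 1.27, adjusted p = 0.0344 for *Tbx3* and 4.60 ± 0.44, adjusted p = 1.79e-05 for *Zfp42*.

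The difference between aggregates with and without cytokines at day 6 was less positive in TKO than in wild-type cells for all 8. In this test 21% of all tested genes were higher and 22% lower. Only the wild-type cells with cytokines may be sorted, which cannot be told apart from the interaction. It was -8.44 ± 0.46, adjusted p = 9.58e-09 for *Nanog* and -8.44 ± 0.50, adjusted p = 1.64e-08 for *Zfp42* (edgeR adjusted p). Among the KLF factors it was -7.60 ± 0.72, adjusted p = 1.14e-06 for *Klf2*, -2.98 ± 0.51, adjusted p = 0.000264 for *Klf4* and -6.10 ± 0.45, adjusted p = 1.04e-07 for *Klf5* (edgeR adjusted p). It was -5.86 ± 0.94, adjusted p = 0.000166 for *Esrrb*, -6.18 ± 0.53, adjusted p = 4.25e-07 for *Tfcp2l1* and -4.19 ± 0.84, adjusted p = 0.000986 for *Tbx3* (edgeR adjusted p). No condition had enough libraries to be searched for single libraries that stand apart.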

How the results depend on the processing

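DESeq2 size factors in edgeR changed none of the 136 tests of members, and a minimum mean CPM of 1 weakened 1. The replicate block changed no call but that of *Esrrb* in the interaction of genotype and time (2.98, adjusted p = 0.0660, against 3.02). Whether replicate numbers pair the samples was not settled (r between -0.156 and 0.182 over 36 pairs of conditions, 7 of them over 0.1). Day 2 with day 6 gave 0.166 without cytokines in both genotypes and 0.158 with them in TKO cells. TKO EpiLCs gave 0.182 with TKO day 2 aggregates with cytokines. EpiLCs with day 2 aggregates without cytokines gave 0.053 in wild-type and -0.062 in TKO cells. For wild-type cells with against without cytokines at day 6, where r was -0.156, edgeR called 9659 genes, 9581 with the block and 9690 with the crossed block, an alternative chosen after seeing the data.

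Without a filter on low counts, 4 members were called between wild-type day 2 and EpiLCs (against 2), 7 between TKO and wild-type EpiLCs (against 4), 2 between TKO and wild-type cells with cytokines (against 1), 3 and 4 for cytokines in TKO cells at day 2 and day 6 (against 1 and 2), and 1 between the days with cytokines (against 0). A fit of only the libraries compared called 2, 2, 4, 5 and 1 in the comparisons after the first, 1 between the days without cytokines and 2 between TKO day 2 and wild-type day 6 cells with cytokines (against 0 in both). With a log2 fold change beyond 2 required, 2 members were called between EpiLCs, 0 between genotypes with cytokines and 1 for cytokines in TKO cells at day 6, while 7 of 8 were called between genotypes at day 2 without cytokines and from TKO EpiLCs to day 2 in both media, and 4 (against 5) between wild-type days 2 and 6. The other counts of members did not change. DESeq2 called 1 between the days with cytokines and 7 for genotype by time (against 6). Scaling by library size called 7 between EpiLCs. The causes were not tested.

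Scaling by library size moved the median log2 fold change of all genes to 0.59 for wild-type day 2 against EpiLCs and to -0.48 and -0.49 for cytokines in TKO cells at day 2 and day 6. It turned *Klf5* to 0.53 at wild-type day 2 against EpiLCs (0.098 without *Rn45s* in the total). For cytokines in TKO cells at day 2 it turned *Nanog* to -0.25, *Klf2* to -0.060, *Esrrb* to -0.22 and *Zfp42* to -0.089, and at day 6 *Nanog* to -0.0032, *Klf2* to -0.17 and *Zfp42* to -0.053; without *Rn45s* in the total none of these 7 turned, and the medians of all genes were -0.21 and -0.10. Between TKO days, *Esrrb* without cytokines turned to 0.0097 (0.0032 without *Rn45s*) and *Klf2* with cytokines to 0.031 without *Rn45s*. The share of called genes that were higher went from 54.2% to 86.1% (66.7% without *Rn45s*) at wild-type day 2 against EpiLCs, 55.2% to 78.2% (66.3%) for wild-type day 6 with cytokines against EpiLCs, 50.9% to 38.4% against no cytokines, 70.4% to 93.1% between EpiLCs, 54.8% to 72.9% between genotypes at day 2, 54.3% to 94.6% (74.4%) for TKO day 2 without cytokines against EpiLCs, and 45.4% to 3.62% (20.7%) and 45.6% to 3.36% (27.8%) for cytokines in TKO cells at day 2 and day 6.

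With 1 library left out in turn, where the lone library of a condition is assumed to vary like the other conditions, 1 to 6 members were called between EpiLCs, 0 to 1 between genotypes with cytokines at day 6, 0 to 1 and 1 to 1 for cytokines in TKO cells at day 2 and day 6, and 2 to 7 for genotype by time. Log2 fold changes that crossed 0 were, at wild-type day 2 against EpiLCs, -0.24 to 1.14 (*Klf4*), -0.56 to 0.49 (*Klf5*), -1.39 to 0.24 (*Esrrb*) and -0.57 to 1.99 (*Tbx3*), and at wild-type day 6 against day 2, -1.40 to 0.71 (*Esrrb*) and -1.94 to 2.36 (*Tbx3*). Between genotypes with cytokines they were -0.22 to 0.022 (*Klf2*) and -0.21 to 0.14 (*Tfcp2l1*). Between TKO days they were -0.22 to 0.20 (*Klf2*) and -0.44 to 0.14 (*Klf5*) with cytokines, and -0.030 to 0.062 (*Klf2*) and -0.14 to 0.13 (*Esrrb*) without. Between TKO day 2 and wild-type day 6 they were -0.19 to 0.13 (*Nanog*) and -0.29 to 0.13 (*Klf2*), and for genotype by time -0.020 to 1.01 (*Nanog*). None of these values was called in the fit of all libraries. With 2 libraries per condition, small differences were not detectable.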

Other observations

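The LIF pathway was also compared between the genotypes in EpiLCs. The coreceptor *Il6st* had 254 and 261 in wild-type and 497 and 765 in TKO EpiLCs (log2 fold change 1.32 ± 0.21 (SE)), and the kinase *Jak1* had 421 and 472 against 780 and 758 (0.81 ± 0.14). Both calls held with any 1 of the 4 libraries left out. *Lifr*, the LIF receptor, had 346 and 251 in wild-type and 422 and 1367 in TKO EpiLCs (1.63 ± 0.44 (SE), edgeR adjusted p = 0.028), and its high value was in replicate 2, the TKO library in which all 8 naive factors were higher than in the other. Without that library the log2 fold change of *Lifr* was 0.54 (edgeR adjusted p = 0.460), and the call was also lost without either wild-type library. *Stat3* and *Socs3* were not called.

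Among the core factors *Sox2* had 1312 and 604 in wild-type and 1601 and 2733 in TKO EpiLCs (1.23 ± 0.30, edgeR adjusted p = 0.0187), and without TKO replicate 2 it was not called (0.78, adjusted p = 0.188), nor without replicate 2 of the wild type (0.77, adjusted p = 0.181). Of the listed regulators of naive exit, *Rbpj* had 1167 and 939 against 2208 and 3474 (1.47 ± 0.25), called with any 1 library left out. *Tcf15* had 772 and 359 against 824 and 2070 (1.41 ± 0.40), and its log2 fold change was 0.59 without TKO replicate 2 (edgeR adjusted p = 0.426) and 0.96 without replicate 2 of the wild type (edgeR adjusted p = 0.277).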
